A study of Mus musculus with 13 samples.

Results

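The UDP-glucuronosyltransferases of families 2 and 3 (UGT2 and UGT3) were followed in the livers of streptozotocin-treated mice. Members were the genes Ugt2a3, Ugt2b1, Ugt2b5, Ugt2b34, Ugt2b35, Ugt2b36, Ugt2b37, Ugt2b38, Ugt3a1 and Ugt3a2, each read from the probe set that the platform annotation assigns to that symbol alone. All 10 were found among the 19938 named genes of the array, and each had 1 such probe set. Livers of 6 mice given streptozotocin (STZ), a compound toxic to the insulin-producing beta cells, at 65 mg/kg into the peritoneum on each of 5 days, were set against livers of 7 mice given citrate buffer, a control that the series design text describes by its standard diet instead. All 13 mice were wild-type C57BL/6N males. Injections began at 10 to 16 weeks of age, livers were collected 9 to 11 weeks later, and the mice were 5 to 6 months old. Total RNA of each mouse was hybridised to 1 Affymetrix mouse gene array. Effects of insulin deficiency and of STZ itself on the liver cannot be told apart in this design. Values are deposited log2 RMA values, and a difference is the STZ mean minus the control mean in log2 units, with its standard error (SE) from limma fitted over all 19938 genes.

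UGT enzymes sit in the membrane of the endoplasmic reticulum and attach a sugar from a UDP-sugar donor to small lipophilic molecules, which makes these soluble enough to leave in bile or urine. UGT2 enzymes use UDP-glucuronic acid and conjugate steroids, bile acids, fatty acid derivatives and many drugs, and liver is their main site. UGT3 enzymes use other donors: human UGT3A1 transfers N-acetylglucosamine and human UGT3A2 transfers glucose or xylose. Each Ugt2b gene is a complete gene of its own, whereas the Ugt1a enzymes are spliced from alternative first exons onto common later exons.

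In the RefSeq gene table of GRCm38.p6, the 8 UGT2 members lay side by side on chromosome 5, with no other protein-coding gene between them, in the order Ugt2b34, Ugt2b1, Ugt2b35, Ugt2b36, Ugt2b5, Ugt2b37, Ugt2a3 and Ugt2b38. Ugt3a1 and Ugt3a2 were direct neighbours on chromosome 15. RefSeq promoter windows, 250 bases before to 50 bases after the gene start, were matched for 9 members. The stretches below are shown because they hold the feature that these windows have in common, a short pattern of letters close to the gene start. The letters searched were GTTA, any 4 bases and TTAAC, on both strands, chosen after the windows had been read. They occurred in 8 of the 9 windows, all but that of Ugt2a3, and in 62 of all 32851 windows of the table, which is 0.189%. Capitals mark the match, or in Ugt2a3 its pair of separate TTAAC half-sites, read on the other strand. That shorter run was present in all 9 windows and in 24.2% of all windows. It is the end of the longer pattern, so the 8 windows with a match hold it by construction. Only the window of Ugt2a3 adds to that count.
Ugt2b34: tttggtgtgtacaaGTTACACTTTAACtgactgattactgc
Ugt2b1: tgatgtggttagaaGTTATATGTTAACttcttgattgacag
Ugt2b35: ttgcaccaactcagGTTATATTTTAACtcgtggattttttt
Ugt2b36: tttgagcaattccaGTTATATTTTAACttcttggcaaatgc
Ugt2b5: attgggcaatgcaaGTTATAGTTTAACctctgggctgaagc
Ugt2b37: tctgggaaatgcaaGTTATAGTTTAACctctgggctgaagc
Ugt2b38: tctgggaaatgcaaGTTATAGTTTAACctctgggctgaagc
Ugt2a3: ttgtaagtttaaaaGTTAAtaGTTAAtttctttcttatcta
Ugt3a1: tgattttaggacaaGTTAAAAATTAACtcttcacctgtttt

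These stretches are written 5′ to 3′ on the strand of the gene. That of Ugt2b1 is chr5:86926566-86926606 (minus strand), that of Ugt2a3 chr5:87337223-87337263 (minus strand) and that of Ugt3a1 chr15:9279685-9279725 (plus strand), all in GRCm38.p6. Counted from the gene start, the match began at position -89 in Ugt2b1 and -130 in Ugt3a1, and between -78 and -61 in the other 6 genes. The windows of Ugt2b37 and Ugt2b38 were alike over most of their length, with 273 of 286 aligned bases identical (95.45%), and Ugt2b5 shared 90.0% of its aligned bases with Ugt2b38. Windows this alike do not give separate occurrences of the pattern, so the count of 8 is not one of independent windows. Likeness of these windows does not measure likeness of the transcripts that the probes bind. Transcripts of close paralogs can bind each other's probes, which could not be checked here, so the values of single Ugt2b genes are uncertain. The other letter runs searched were absent from all 9 windows. They were TTCNNNGAA, the STAT5 pattern (8.3% of all windows), TGACNNNGC, the antioxidant response core (12.4%), and GCGTG, the xenobiotic response core (32.4%), each on both strands.

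The 13 arrays had medians within 0.09 of each other. Pearson correlations across the 19938 genes were 0.986 to 0.995 between STZ arrays and 0.993 to 0.997 between control arrays. The hepatocyte markers were bright in every array, with a list mean of 13.07 to 13.13 in STZ livers and 13.07 to 13.16 in controls, so the tissue label held. STZ replicate 5 stood apart from the other STZ livers. Hsd3b5, a steroid dehydrogenase of male mouse liver, had 10.31 in that array and 4.71 to 5.03 in the other 5 STZ arrays, against 11.14 to 12.13 in controls. Results are therefore also given without STZ replicate 5.

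Of the 10 members, 2 were lower in STZ livers, Ugt2b1 and Ugt2a3, and none was higher (limma, adjusted p under 0.05 over all genes). The same test called 4.04% of all 19938 genes lower and 5.09% higher, 9.12% in all. Among the genes brighter than the median gene, as all 10 members were, it called 7.01% lower. The median difference of the members was -0.10, against -0.01 over all genes. Below 0 were 7 of the 10 differences, against 10484 of 19938 over all genes. At an unadjusted p under 0.05, 4 members were named, Ugt2b1, Ugt2a3 and Ugt3a1 with a difference below 0 and Ugt2b35 with one above 0, where 20.8% of all genes reached that level. An exact permutation of the difference of means, adjusted over all genes, called 1 member lower, Ugt2a3, and none higher, against 3.12% and 4.09% of all genes. Without STZ replicate 5 the limma count was 4 lower and none higher, Ugt2b38 and Ugt3a1 being added, against 5.13% and 5.75% of all genes. That array was the highest STZ array for 9 members, so leaving it out lowers their STZ means. The added calls are therefore no separate support. In whole liver, fewer cells of a type and less RNA per cell cannot be told apart.

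**Figure D1:**
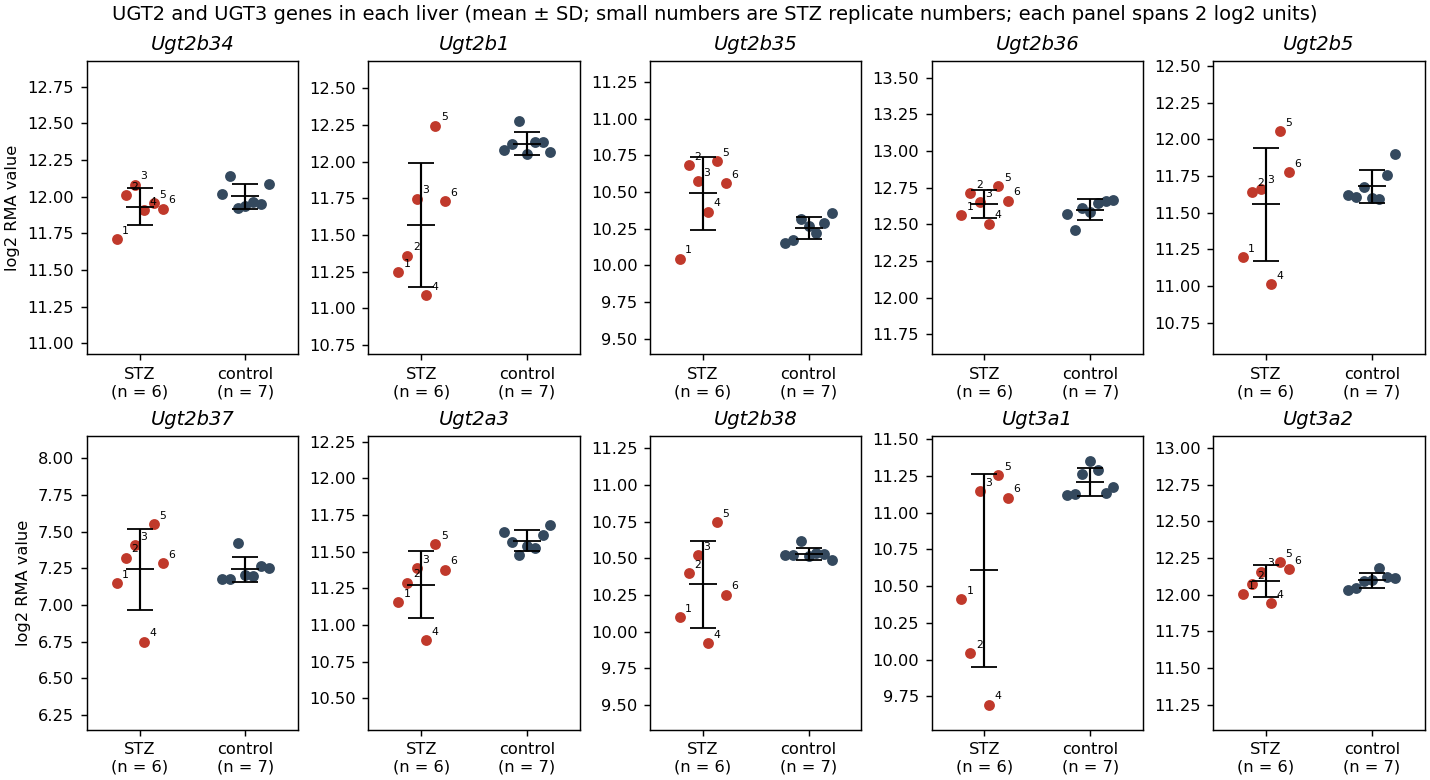
Log2 RMA values (vertical axes) of the 10 genes in each STZ liver (left, red) and control liver (right, dark), 1 point per array with the mean and SD of the group. Control points of a gene lie close together, while STZ points of Ugt2b1 and Ugt3a1 spread from 11.09 to 12.25 and from 9.69 to 11.26.

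Ugt2b1 had values of 11.09, 11.55 and 12.25 (lowest, median and highest) in STZ livers, against 12.05, 12.12 and 12.28 in controls. Below every control lay 5 of the 6 STZ arrays, and STZ replicate 5 lay within the control range. The mean was 11.57 ± 0.42 (SD, n = 6) in STZ livers and 12.12 ± 0.08 (SD, n = 7) in controls. The difference was -0.55 ± 0.14 (limma, adjusted p = 0.0175), a level at 68.2% of control. Leaving out any 1 array kept the call, with differences of -0.69 to -0.46. In the exact permutation test the unadjusted p was 0.00408 and the adjusted p 0.0531, which misses the threshold.

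Ugt2a3, whose human counterpart conjugates bile acids, had values of 10.90, 11.33 and 11.55 (lowest, median and highest) in STZ livers, against 11.48, 11.57 and 11.68 in controls. Again 5 of 6 STZ arrays were below all controls, and STZ replicate 5 was the exception. The difference was -0.30 ± 0.08 (limma, adjusted p = 0.0317), a level at 81.3% of control, and the exact permutation test gave an adjusted p of 0.0385. This call was near the threshold. It was lost without control replicate 1, 6 or 7 and without STZ replicate 1, 2 or 4, at differences of -0.30 to -0.22 and adjusted p of 0.0501 to 0.0758 in limma.

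Ugt3a1 had the largest mean difference of the 10 genes but did not pass. It had 9.69, 10.76 and 11.26 (lowest, median and highest) in STZ livers, against 11.12, 11.17 and 11.35 in controls. The STZ arrays fell apart: replicates 4, 2 and 1 had 9.69, 10.04 and 10.41, while replicates 6, 3 and 5 had 11.10, 11.15 and 11.26. The first 3 lay far below all controls, replicate 6 just below them, and the other 2 inside the control range. The difference was -0.60 ± 0.21 with an adjusted p of 0.0901 in limma, and its 95% interval ran from -1.04 to -0.16. Without STZ replicate 5, the highest STZ array, it was -0.73 (limma, adjusted p = 0.0255). Without STZ replicate 3, the next highest, it was -0.71 (limma, adjusted p = 0.0439). Its neighbour Ugt3a2 had 11.94, 12.11 and 12.22 in STZ livers, against 12.03, 12.10 and 12.19 in controls, and 3 of the 6 STZ arrays lay within the control range, 2 below it and 1 above. The Ugt3a2 difference was -0.01 ± 0.05, with an interval of -0.12 to 0.11.

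The array also carries 2 probe sets that the annotation assigns to Ugt3a1 and Ugt3a2 together, which name neither gene. In both, STZ replicates 1, 2 and 4 were lowest, at 11.23 to 11.54 over both probe sets, against 11.60 to 11.96 in controls. Their differences were -0.19 ± 0.08 and -0.20 ± 0.08, and neither passed (adjusted p = 0.267 and 0.246 in limma over all probe sets).

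Ugt2b35 was the member with the largest difference above 0, and it lies next to Ugt2b1. It had 10.05, 10.57 and 10.71 (lowest, median and highest) in STZ livers, against 10.15, 10.27 and 10.36 in controls. Above every control lay 5 of the 6 STZ arrays, and STZ replicate 1 lay below every control. The difference of 0.24 ± 0.09 did not pass (adjusted p = 0.125 in limma). Without STZ replicate 1 it was 0.32 and passed (adjusted p = 0.00543).

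Ugt2b38 had 9.92, 10.32 and 10.75 in STZ livers (lowest, median and highest), against 10.49, 10.52 and 10.62 in controls. Below all controls lay 4 STZ arrays, and STZ replicate 5 lay above all of them. The difference was -0.21 ± 0.10 (adjusted p = 0.248 in limma), and without STZ replicate 5 it was -0.29 (adjusted p = 0.0320). Ugt2b5 had 11.01, 11.65 and 12.06 in STZ livers, against 11.59, 11.62 and 11.90 in controls. STZ replicates 1 and 4 lay below all controls and STZ replicate 5 above them, and the difference of -0.12 ± 0.13 did not pass.

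The remaining genes had intervals on both sides of 0. Ugt2b34 differed by -0.07 ± 0.06 (interval -0.20 to 0.06), Ugt2b36 by 0.04 ± 0.05 (-0.07 to 0.16) and Ugt2b37 by 0.00 ± 0.10 (-0.21 to 0.21). Ugt2b37 was the dimmest member, at a mean of 7.24 over all arrays, and arrays compress differences of dim genes. No member had groups without overlap, a state found in 3.86% of all genes (1.56% with STZ lower and 2.3% with STZ higher).

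**Figure D2:**
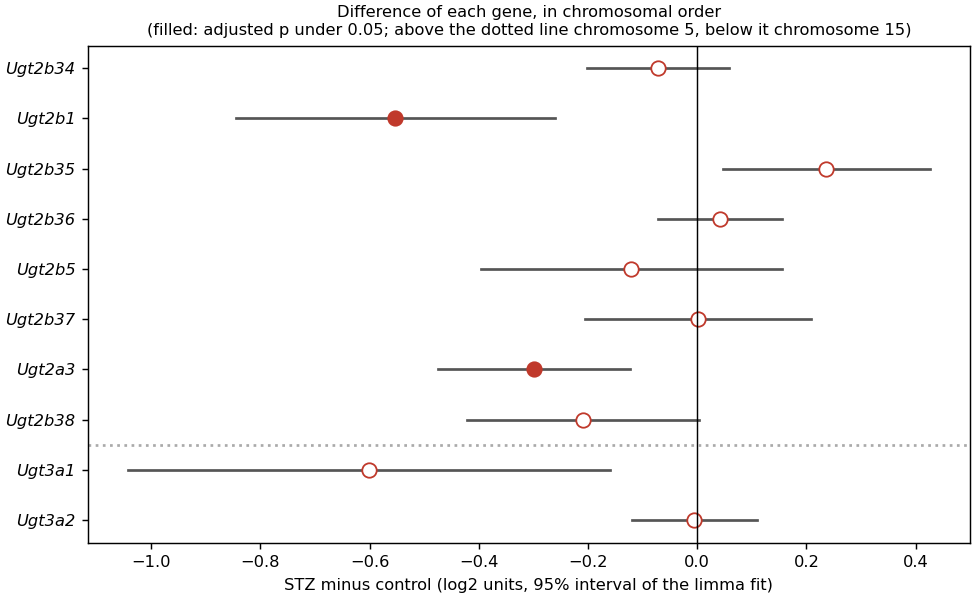
Difference of each gene, STZ minus control in log2 units (horizontal axis), with the 95% interval of the limma fit, in chromosomal order from top to bottom. Filled points passed at an adjusted p under 0.05, which were Ugt2b1 (-0.55) and Ugt2a3 (-0.30), and the intervals are not adjusted for the number of genes.

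The spread between mice was wider in STZ livers than in controls for all 10 members. The standard deviation (SD) was larger in STZ livers for 61.6% of all genes, and at least 2 times larger for 15.4%. Among the members it was at least 2 times larger for 8, all but Ugt2b34 (0.13 in STZ, 0.08 in control) and Ugt2b36 (0.10 in STZ, 0.07 in control). For Ugt2b38 it was 0.30 in STZ livers and 0.04 in controls, for Ugt3a1 0.66 and 0.09, and for Ugt2b1 0.42 and 0.08. The median ratio of the SDs was 3.28 over the members and 1.17 over all genes. Among the genes brighter than the median gene, the SD was larger in STZ livers for 66.3% and at least 2 times larger for 19.7%. Most members were far brighter than the median gene, so these shares are no matched comparison. Without STZ replicate 5 the members counted were 7 (14.7% of all genes), and without STZ replicate 4 they were 6 (15.4%). These counts are descriptions and carry no test. The limma fit uses 1 shared spread per gene for both groups, which the SDs of most members depart from. The SE, intervals and p-values of these members in limma rest on that shared spread.

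**Figure D3:**
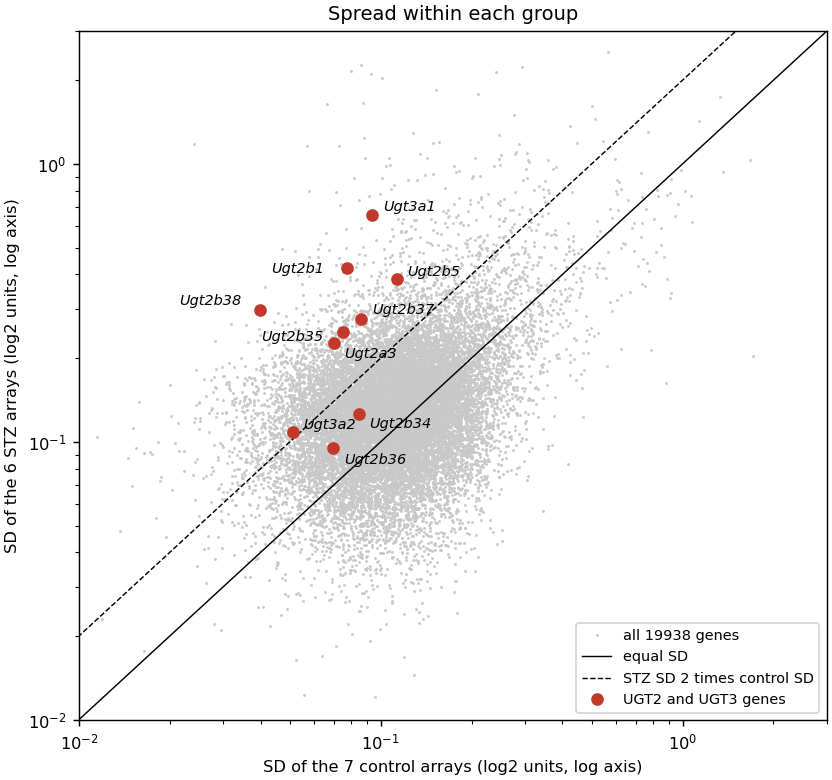
SD of the 6 STZ arrays (vertical, log axis) against SD of the 7 control arrays (horizontal, log axis) for each gene. Red points are the 10 UGT genes, of which 8 lie above the dashed line of a ratio of 2, and grey points are all 19938 genes.

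Within the STZ group the same arrays were often lowest or highest. STZ replicate 4 was the lowest of the 6 STZ arrays for 8 of the 10 members, all but Ugt2b34 and Ugt2b35, which were lowest in STZ replicate 1. Among all genes replicate 4 was the lowest STZ array for 14.6%. STZ replicate 5 was the highest STZ array for 9 members, all but Ugt2b34, and for 15.4% of all genes. Both held for 8 members and for 2.41% of all genes. Replicates 1, 4 and 5 were singled out after the values of these members were seen, so the shares over all genes are a description and no fair comparison. STZ replicate 1 lay below all controls for 9 members (17.7% of all genes), STZ replicate 4 for 8 (20.0%), and STZ replicate 5 for none. STZ replicate 5 lay above all controls for 6 members (14.3%). Averaged over the 10 members, the deviation from the control mean was -0.52 in replicate 4, -0.37 in replicate 1, -0.18 in replicate 2, -0.05 in replicate 6, 0.00 in replicate 3 and 0.17 in replicate 5.

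**Figure D4:**
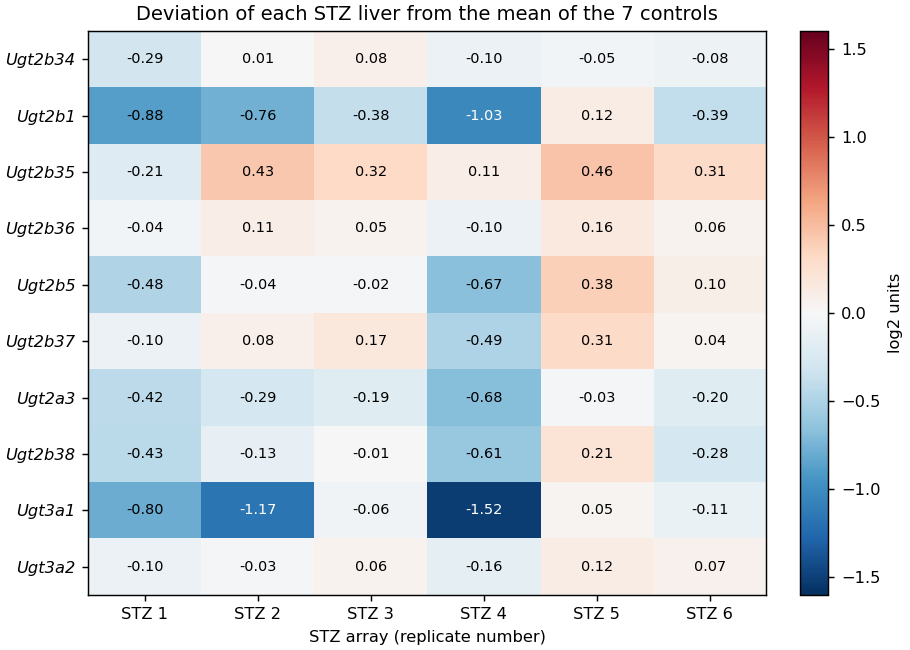
Deviation of each STZ array (columns) from the mean of the 7 controls for each gene (rows, chromosomal order), in log2 units, blue below and red above the control mean. STZ replicates 1 and 4 are blue in most rows, and Ugt3a1 reaches -1.52 in replicate 4 while replicate 5 is at 0.05.

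Over the 13 arrays, the deviations from the group means correlated positively in all 45 pairs of members, with a median Pearson r of 0.76 and a range of 0.13 to 0.94. The closest pairs were Ugt2a3 with Ugt2b5 (0.94) and Ugt2b37 with Ugt2b38 (0.92). Ugt2b34 stood apart, with r of 0.13 to 0.60 to the other members. The pairs share the arrays and their normalisation, and paralogs may share probes. The members spread more in STZ livers (median SD ratio of 3.28), so these r rest mostly on the 6 STZ arrays. They largely restate the order of those arrays, and no value for pairs of other genes is given beside them. Outside the family, the genes most like Ugt2b1 by the same measure were Nat8 (0.98), Cmah (0.96) and C6 (0.95), and those most like Ugt3a1 were Ces3a (0.97), Paqr9 (0.95) and Cyp4f14 (0.95). All 6 were lower in STZ livers (limma), Nat8 by -1.49 ± 0.31 and the carboxylesterase gene Ces3a by -1.96 ± 0.51. The same test called 4.04% of all genes lower. These genes were picked from all others as the 3 closest to a member, so their count carries no test. Those most like Ugt2a3 were Chpt1 (0.93), Alb (0.92) and Ces1f (0.92). Chpt1 (-0.51 ± 0.09) and Ces1f (-0.69 ± 0.16) were lower, and Alb did not pass (-0.03 ± 0.04). None of the genes most like Ugt2b36 (Gsta3, Mgst1 and Exoc5) passed. Other members that did not pass themselves had lower genes among their 3 closest. These were Csrp3 (-0.92 ± 0.15) and Ephx2 (-0.45 ± 0.08) for Ugt3a2 and Ghr (-0.57 ± 0.10) for Ugt2b37. They were also Hsd3b2 (-0.95 ± 0.18) for Ugt2b38, Sar1b (-0.22 ± 0.06) for Ugt2b34 and Chpt1 for Ugt2b5. The remaining closest genes of these members did not pass. Ugt2b35 was most like Mdm2 (0.94), Glyat (0.92) and Saa4 (0.91), which did not share a direction. Mdm2 was higher in STZ livers by 0.92 ± 0.09, Saa4 was lower (-0.43 ± 0.11), and Glyat did not pass (-0.11 ± 0.07).

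Igfbp1, a hepatic transcript that insulin represses, served as an index of the treatment and was higher in all 6 STZ livers (8.95 to 11.22) than in any control (7.08 to 8.81). In falling order of Igfbp1 the STZ arrays ran 4, 1, 2, 6, 3 and 5. In rising order of Ugt2b1 and of Ugt2a3 they ran 4, 1, 2, 6, 3 and 5 as well, while the other 8 members had other orders. Ugt3a1 rose in the order 4, 2, 1, 6, 3 and 5, and Ugt2b34 in the order 1, 4, 6, 5, 2 and 3. None of the other 4 index genes (Hsd3b5, Slco1a1, Cyp2b9 and Sult1e1) gave the order of Igfbp1 in either direction. Replicate 4 had 11.22 for Igfbp1 and 11.09 for Ugt2b1, and replicate 5 had 8.95 for Igfbp1 and 12.25 for Ugt2b1. This agreement in order was noticed after the values were seen and rests on 6 arrays. Deviations of Ugt2b1 and Ugt2a3 correlated with each other (0.81), so their orders are not independent. The share of all genes with this order is not given here.

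The genes around the glucuronidation step changed in both directions. The other UGT genes could hardly be read. Of 12 listed, only Ugt8a, the ceramide galactosyltransferase, has a probe set of its own (0.06 ± 0.08, not passed). A probe set shared by 8 Ugt1a symbols gave 11.38 to 11.62 in STZ livers and 11.18 to 11.49 in controls, a difference of 0.13 ± 0.06 that did not pass (adjusted p = 0.298 in limma over all probe sets). The probe set of Ugt2a1 and Ugt2a2, known mainly from nasal tissue, was dim in both groups, at 3.90 to 4.06 in STZ livers and 3.78 to 4.05 in controls.

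Of 12 measured genes of UDP-sugar supply, 2 were higher and 1 lower in STZ livers, with a median of -0.04. Ugp2, which makes UDP-glucose, was higher by 0.47 ± 0.08 (10.95 ± 0.19 in STZ, 10.48 ± 0.11 in control). Ugdh, which oxidises UDP-glucose to the glucuronosyl donor, was higher by 0.23 ± 0.06 (adjusted p = 0.0320), a call that held in 5 of 13 fits without a single array. Pgm3, an enzyme of UDP-N-acetylglucosamine synthesis, was lower by -0.73 ± 0.13. Slc35d1, which carries UDP-glucuronic acid into the endoplasmic reticulum, differed by -0.16 ± 0.06 and did not pass.

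Among 8 genes of glucuronate use and glucuronide cleavage, 2 were higher and 2 lower, at a median of 0.10. Cryl1 (0.45 ± 0.06) and Dcxr (0.42 ± 0.06), both of the pathway that takes glucuronate to xylulose, were higher. Rgn, a lactonase of vitamin C synthesis, was lower (-0.42 ± 0.10, adjusted p = 0.0531 in the exact permutation test), as was the xylulokinase gene Xylb (-0.22 ± 0.06), which passed in 5 of 13 such fits. Gusb, the beta-glucuronidase that removes the sugar again, differed by 0.20 ± 0.11 and did not pass.

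Of 8 conjugate transporters, 3 were higher and 2 lower, at a median of 0.17. The basolateral exporters Abcc4 (1.11 ± 0.20), Abcc1 (0.36 ± 0.06) and Abcc3 (0.31 ± 0.06) were higher, Abcc3 being known for carrying glucuronides into blood. The canalicular exporter Abcc2, which carries them into bile, differed by 0.12 ± 0.06 and did not pass. The canalicular exporter Abcg2 (-0.51 ± 0.15) and the uptake carrier Slco1b2 (-0.31 ± 0.09) were lower, calls that held in 4 and 3 of 13 such fits.

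Among 15 measured transcription regulators, 4 were higher and 3 lower, at a median of 0.15. The aryl hydrocarbon receptor Ahr (0.53 ± 0.09), the antioxidant regulator Nfe2l2 (0.32 ± 0.08), the estrogen receptor Esr1 (0.62 ± 0.10) and Cux2 (0.66 ± 0.19), a repressor of male-biased genes in female liver, were higher. Ppara (-0.79 ± 0.09), the bile acid receptor Nr1h4 (-0.39 ± 0.09) and Bcl6 (-1.37 ± 0.33), a repressor of female-biased genes in male liver, were lower. The Cux2 call held in 3 of 13 such fits and the Bcl6 call in all 13. With trend and robust variance in limma neither passed (adjusted p = 0.0825 for Cux2 and 0.0535 for Bcl6), nor in the exact permutation test (0.0621 and 0.0664). The xenobiotic receptors Nr1i2 (0.19 ± 0.11) and Nr1i3 (0.19 ± 0.17) and the hepatocyte factor Hnf4a (0.15 ± 0.06) did not pass.

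**Figure D5:**
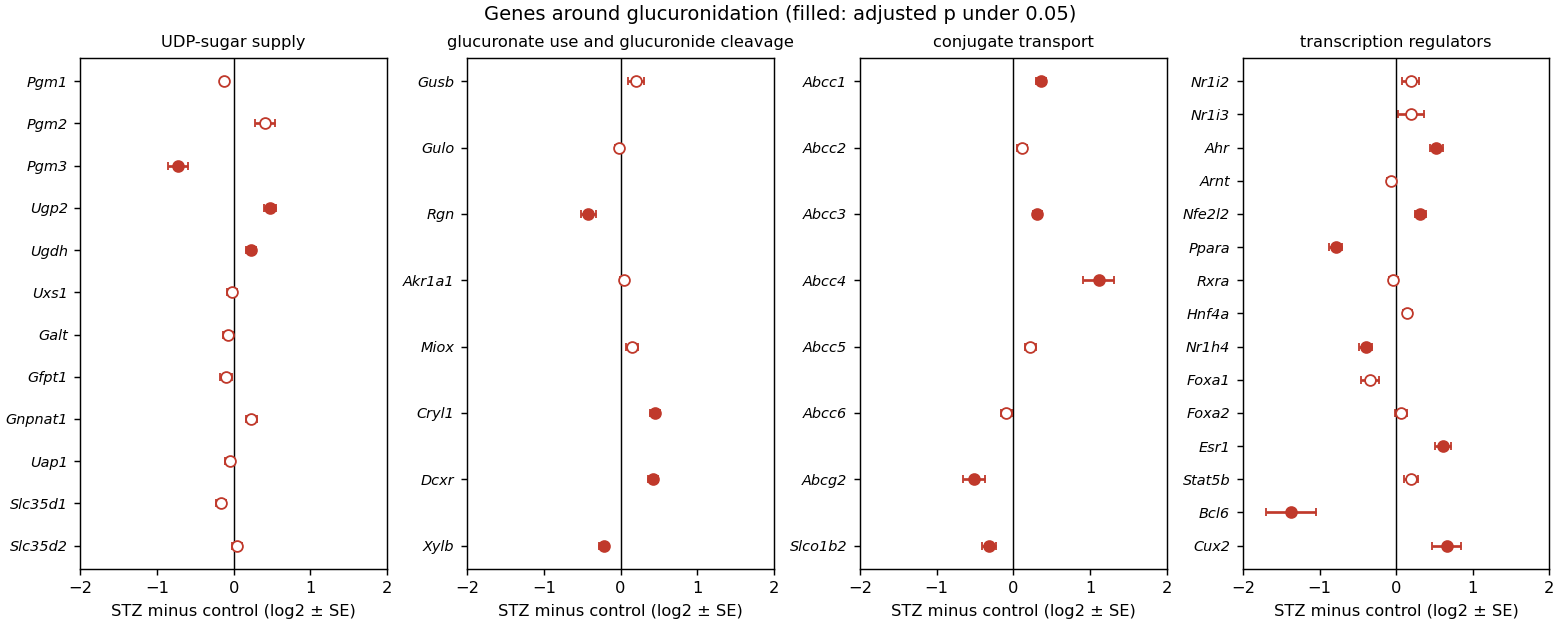
Difference of each listed gene, STZ minus control in log2 units with the SE of the fit (horizontal axes), in the 4 lists around glucuronidation. Filled points passed at an adjusted p under 0.05, and filled points stand on both sides of 0 in each list, from -1.37 (Bcl6) to 1.11 (Abcc4).

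Some markers of other liver cells differed between the groups in limma. The same test called 5.09% of all genes higher and 4.04% lower. Of 7 Kupffer cell and macrophage markers 4 were higher in STZ livers, at a list mean of 8.59 to 9.22 in STZ livers and 8.42 to 8.84 in controls. Without single arrays these calls held in 13 (Cd5l), 12 (Vsig4), 9 (Clec4f) and 6 (Cd68) of 13 fits, and in the exact permutation test none of the 4 passed (adjusted p = 0.0531 to 0.102). Of 6 endothelial markers, Lyve1 (0.50 ± 0.11) was higher, which did not pass in the exact permutation test (adjusted p = 0.0706). Of 6 stellate cell markers, Dcn (0.35 ± 0.06) was higher and Lrat (-0.47 ± 0.08) lower. Of 5 leukocyte markers, Ptprc (0.31 ± 0.09) was higher, a call that held in 4 of 13 fits. Of 7 hepatocyte markers, Cps1 (0.16 ± 0.04) was higher and Apoa1 (-0.23 ± 0.06) and Ttr (-0.18 ± 0.05) were lower, calls that held in 8, 13 and 2 of 13 fits. No bile duct, pancreas or kidney marker passed (limma, 5, 3 and 4 measured). STZ replicates 1 and 4, the lowest for most UGT genes, had macrophage list means of 9.22 and 9.17 (replicate 2 also had 9.17) and hepatocyte list means of 13.12 and 13.13, the highest hepatocyte means of the STZ arrays. The part of these cells in the UGT differences was not tested.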

How the data were processed

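The authors deposited log2 values of 35556 probe sets for 13 arrays, which the submitters' processing notes credit to the RMA method of Expression Console 1.2 (Affymetrix). RMA brings arrays to a common distribution, so a change in total RNA per cell is not seen. The build and annotation behind that step were not given in the sources used here. The labels call the arrays biological replicates, and no batch is named.

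Probe sets with exactly 1 gene symbol (21789) named 19938 genes, the brightest probe set standing for a gene. STZ and control were compared by limma 3.58.1 in R 4.3.3 (lmFit, eBayes, 2-sided, Benjamini-Hochberg over all 19938 genes, threshold 0.05), with no filter on dim genes. In this fit both groups share 1 estimate of spread per gene. The exact permutation test used all 1716 splits, with a smallest p of 0.000583. Tested on simulated STZ and control arrays of the 19938 genes, the fit recovered 86% of 100 genes changed by 0.5 and 99% of 100 changed by 1 log2 unit. The simulated noise had the same SD in both groups, and the changed genes were drawn at random. The members spread more in STZ livers, with a median SE of 0.09 against 0.07 over all genes. These recovery shares therefore do not describe the members. The number of arrays limits the precision.

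Members and gene lists were chosen with earlier results of these data known. Named were all members and the passing genes of each list, for the transcription regulators more than the planned 5. The genes of most interest that did not pass were added after their values were seen. Also named were genes most like a member by correlation of deviations. Promoters are from RefSeq, GRCm38.p6. Alternatives were the variance model, a brightness filter, the mean of probe sets, array centring, repeated quantile normalization, array weights, permutation, fewer arrays and a replicate block.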

Additional observations from a re-analysis of the deposited data

Results flagged for a closer look

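Dixon's gap test set control replicate 3 apart from the other 6 controls for 3 members. It was the highest control for Ugt2b1 (12.281), Ugt2b37 (7.422) and Ugt2b38 (10.615). The next controls had 12.136, 7.269 and 10.534. These were 3 flags among 20 sets of a gene and a group, where chance flags about 1 in 20, and the 3 genes share the array. Without control replicate 3 the Ugt2b1 call held.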

How the results depend on the processing

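The count of 2 UGT genes lower in STZ livers was 1 with the replicate block, 1 in the exact permutation test and 1 to 4 when single arrays were left out, and 0 to 1 genes were then higher. The permutation test lost Ugt2b1 (adjusted p = 0.0531), and the block lost Ugt2a3 (-0.28, adjusted p = 0.0858). The cause was not tested. With trend and robust variance, the brightness filter, both normalization alternatives and array weights the count stayed at 2, and Ugt2b1 was -0.55 to -0.53. With STZ replicates 1 to 4 alone, which also leaves out STZ replicate 5, the count was 3. Ugt3a1 was added at -0.89 (limma, adjusted p = 0.00632). Over all genes the count of 1819 was 1399 to 2168 without single arrays and 1256 to 1986 in the other settings. The 8 members with an SD at least 2 times larger in STZ livers were 6 to 9 without single arrays, an alternative chosen after seeing the data. The replicate numbers of the groups did not pair the arrays, since same-numbered arrays had correlations of deviations of -0.09 to 0.19, and 1 of 6 STZ arrays correlated best with its own number. Each member has 1 probe set, so averaging the probe sets of a gene leaves its values as they are, and the planned second probe set gave no value. The block also lost the 4 macrophage calls (limma, adjusted p = 0.0549 to 0.0911) and that of Ptprc (0.156). Array weights lost Ptprc (0.0512). Lost with the block as well were Ugdh (0.0785), Xylb (0.110), Abcg2 (0.0596), Slco1b2 (0.0998), Ttr (0.124), Apoa1 (0.0586) and Cps1 (0.131). Other settings lost some of these too, among them Xylb, Slco1b2 and Ttr with array centring and Abcg2 with trend and robust variance. Apoa1 was lost with STZ replicates 1 to 4 alone. Arrays give no detection calls, so dim values are read only as low signal.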
